A study of Mus musculus with 6 samples.

Results

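The 32 genes described here belong to glycolysis and to the cell's response to low oxygen. They were chosen by symbol and matched to rows of the count table, which lists 55401 genes; all 32 had a row and all 32 had enough counts to be tested. They comprise 16 glycolytic enzymes, 6 regulators and transporters of the pathway, and 10 other hypoxia-inducible genes. RNA was measured in F4/80+ cells, isolated as macrophages by a surface protein encoded by Adgre1. They came from mouse liver tumours taken 14 days after Hepa 1-6 hepatoma cells were injected into the right liver lobe. In the Sms-OE group (3 libraries) the injected cells carried a lentivirus that overexpresses Sms, the gene of spermine synthase, and in the control group (3 libraries) they did not carry that change by label; no further treatment was given to either group. The altered gene was thus in the injected cells and not, by design, in the macrophages. The sources used here do not give the mouse strain and age, the control vector, or whether the overexpressing cells were 1 clone. Replicates are numbered by label without a named animal for each, and the p-values therefore cover only the spread among these libraries, which may be technical.

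Glycolysis splits glucose to pyruvate in the cytosol, and lactate dehydrogenase turns pyruvate to lactate, which leaves the cell through monocarboxylate transporters. Under low oxygen the prolyl hydroxylases encoded by the Egln genes lose activity, HIF-1 alpha escapes degradation, and the factor raises transcription of glucose transporters, most glycolytic enzymes and genes of survival and matrix modification. HIF-1 alpha is controlled mainly at the protein level, which RNA does not report. Macrophages rely on this programme in inflamed and poorly perfused tissue.

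Libraries held 49833764 to 58154006 estimated counts. Macrophage markers summed to 7462 to 7637 counts per 1000000 (CPM) in the controls and 7545 to 8793 CPM in Sms-OE. Single markers went both ways: of the 12, 2 rose (Itgam and Cd14) and 4 fell (Cd68, Aif1, C1qa and C1qb). The neutrophil markers summed to 6935 to 9205 CPM in the controls and 6265 to 7917 CPM in Sms-OE. Hepatocyte markers were lower in Sms-OE, 474.7 to 679.8 CPM in controls against 158.9 to 262.3 CPM, and 11 of the 12 fell. Dendritic cell markers summed to 67.8 to 84.9 CPM in the controls and 46.3 to 53.2 CPM in Sms-OE. Erythroid markers reached 5048 and 5011 CPM in Sms-OE replicates 2 and 3 (the haemoglobin-rich libraries), but 216 CPM in Sms-OE replicate 1 and 43.2 to 188.5 CPM in the controls. Of the erythroid markers, Slc4a1 was at 0 in the other 4 libraries. The hepatoma markers summed to 73.24 to 89.22 CPM in the controls and 50.5 to 72.99 CPM in Sms-OE. Of the 7, Igf2 and Dlk1 were at 0 in all 6 libraries. Of the 5 tested, 2 fell (Gpc3 and Rhox5). Afp, the highest of them, had a mean of 63.61 CPM in the controls and 57.97 CPM in Sms-OE and did not pass. Sms itself stood at 26.9 ± 1.27 CPM in the control libraries and 33.1 ± 0.146 CPM in Sms-OE (SD, n = 3 each). This difference passed the test (log2 0.30, adjusted p = 0.0382 by edgeR). It no longer passed when any 1 library was left out (adjusted p = 0.0719 to 0.122). The libraries are bulk, and which cells the Sms RNA came from was not tested. The share of counts in mitochondrial genes was 4.99 to 7.13% in the controls and 2.16 to 3.12% in Sms-OE, with no overlap; its part in the results was not tested.

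To place the members against the DNA at their starts, the 250 bases upstream of each RefSeq start (GRCm38.p6) were searched on both strands for ACGTG and GCGTG, the core letters of the hypoxia response element. ACGTG also lies within the E-box CACGTG, which other factors bind and which counts here as 2 matches, 1 on each strand. The windows below belong to members that rose (Pfkfb3 at its downstream start, Slc16a1, Egln3 and Ankrd37), to Ldha, which did not pass the test and whose first start held 5 matches, the most in any member's window (Bnip3 also had 5), and to the members Hif1a and Hk3, which fell. Sequences run 5′ to 3′ toward the start, and capitals mark the matches, including those read on the other strand.
Pfkfb3 (chr2:11502091-11502340, minus strand): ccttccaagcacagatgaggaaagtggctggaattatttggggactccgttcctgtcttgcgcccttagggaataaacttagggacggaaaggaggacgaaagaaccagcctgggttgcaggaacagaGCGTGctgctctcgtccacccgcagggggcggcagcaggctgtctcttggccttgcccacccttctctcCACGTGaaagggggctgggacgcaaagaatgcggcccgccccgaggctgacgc
Slc16a1 (chr3:104638414-104638663, plus strand): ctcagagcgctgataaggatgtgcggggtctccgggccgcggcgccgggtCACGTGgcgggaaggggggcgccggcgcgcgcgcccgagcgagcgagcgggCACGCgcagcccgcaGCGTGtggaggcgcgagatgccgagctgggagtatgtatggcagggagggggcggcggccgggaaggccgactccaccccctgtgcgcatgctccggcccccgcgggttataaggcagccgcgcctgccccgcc
Egln3 (chr12:54203875-54204124, minus strand): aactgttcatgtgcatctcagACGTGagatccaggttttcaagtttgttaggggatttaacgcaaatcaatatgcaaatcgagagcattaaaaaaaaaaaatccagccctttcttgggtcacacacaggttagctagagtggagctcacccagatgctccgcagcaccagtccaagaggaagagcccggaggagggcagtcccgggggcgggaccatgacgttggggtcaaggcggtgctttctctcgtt
Ankrd37 (chr8:45999851-46000100, minus strand): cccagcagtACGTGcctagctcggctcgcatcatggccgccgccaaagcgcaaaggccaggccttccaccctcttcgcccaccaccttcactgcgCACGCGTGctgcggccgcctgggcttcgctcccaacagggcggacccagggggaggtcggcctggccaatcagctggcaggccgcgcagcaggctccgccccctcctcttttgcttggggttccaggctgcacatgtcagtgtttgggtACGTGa
Ldha (chr7:46845554-46845803, plus strand): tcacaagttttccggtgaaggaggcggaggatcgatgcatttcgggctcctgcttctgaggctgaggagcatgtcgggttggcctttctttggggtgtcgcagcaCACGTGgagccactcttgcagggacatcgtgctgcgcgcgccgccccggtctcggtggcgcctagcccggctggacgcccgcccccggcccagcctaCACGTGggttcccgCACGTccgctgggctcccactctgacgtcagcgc
Hif1a (chr12:73907617-73907866, plus strand): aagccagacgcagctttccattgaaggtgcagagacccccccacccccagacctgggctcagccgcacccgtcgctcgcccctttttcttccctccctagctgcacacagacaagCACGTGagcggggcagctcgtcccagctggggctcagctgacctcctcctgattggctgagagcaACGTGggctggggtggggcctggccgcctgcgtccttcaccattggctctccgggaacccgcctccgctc
Hk3 (chr13:55021386-55021635, minus strand): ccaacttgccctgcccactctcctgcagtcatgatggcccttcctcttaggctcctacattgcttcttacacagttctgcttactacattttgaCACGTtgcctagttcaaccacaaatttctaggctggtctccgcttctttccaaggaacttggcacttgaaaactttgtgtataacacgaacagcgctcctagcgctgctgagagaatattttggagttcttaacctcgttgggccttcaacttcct

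The Egln3, Slc16a1 and Hk3 windows lay outside any annotated gene in GENCODE M21. The Pfkfb3, Ankrd37, Ldha and Hif1a windows lay within a longer annotated span of their own gene and held 11, 17, 0 and 0 bases of exon; those of Ankrd37 and Hif1a also overlapped the spans of Lrp2bp and Gm15283. Windows with more than 30 bases of annotated exon, among them that of Slc2a1 with 2 matches, are not printed. In all, 43 windows of 30 members were read, and 83.7% held a match. Of all promoter windows of the same length 38.6% held one, and of those of genes tested here 52.0%. The members' windows were also richer in G and C, with a median of 62.8% against 58.8% for windows of genes tested. A match was present in all 7 windows of members that rose (6 genes, with no window for Bnip3l and Ndrg1), in all 4 of members that fell and in 78.1% of those that did not pass. A match is a description of letters and not a bound site.

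Of the 32 members, 8 rose in Sms-OE, 3 fell and 21 did not reach an adjusted p under 0.05 by edgeR's quasi-likelihood test, with Benjamini-Hochberg adjustment over 18277 genes. Over all genes tested 26.9% passed, 12.5% higher and 14.3% lower. The members' shares were 25.0% higher and 9.38% lower. Scaled by library size only, without TMM factors, the table gave 2519 genes higher and 1791 lower in place of 2293 and 2615, and the members 9 higher and 3 lower. The roles went different ways. Among the 16 glycolytic enzymes, no gene rose and 2 fell, and 12 of 16 had negative log2 fold changes (median -0.18), 11 when scaled by library size only, where Pkm turned positive. Their share that fell, 12.5%, was close to the 14.3% of all genes. Among the 6 regulators and transporters 3 rose and all 6 log2 fold changes were positive (median 0.27). Among the 10 other hypoxia-inducible genes 5 rose and 1 fell (median 0.30). In both groups the share that rose exceeded the 12.5% of all genes, in lists of few genes that were not matched to all genes for transcript length. The median over all genes tested was -0.00060. In bulk RNA, fewer cells of a type and less RNA per cell cannot be told apart.

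**Figure D1:**
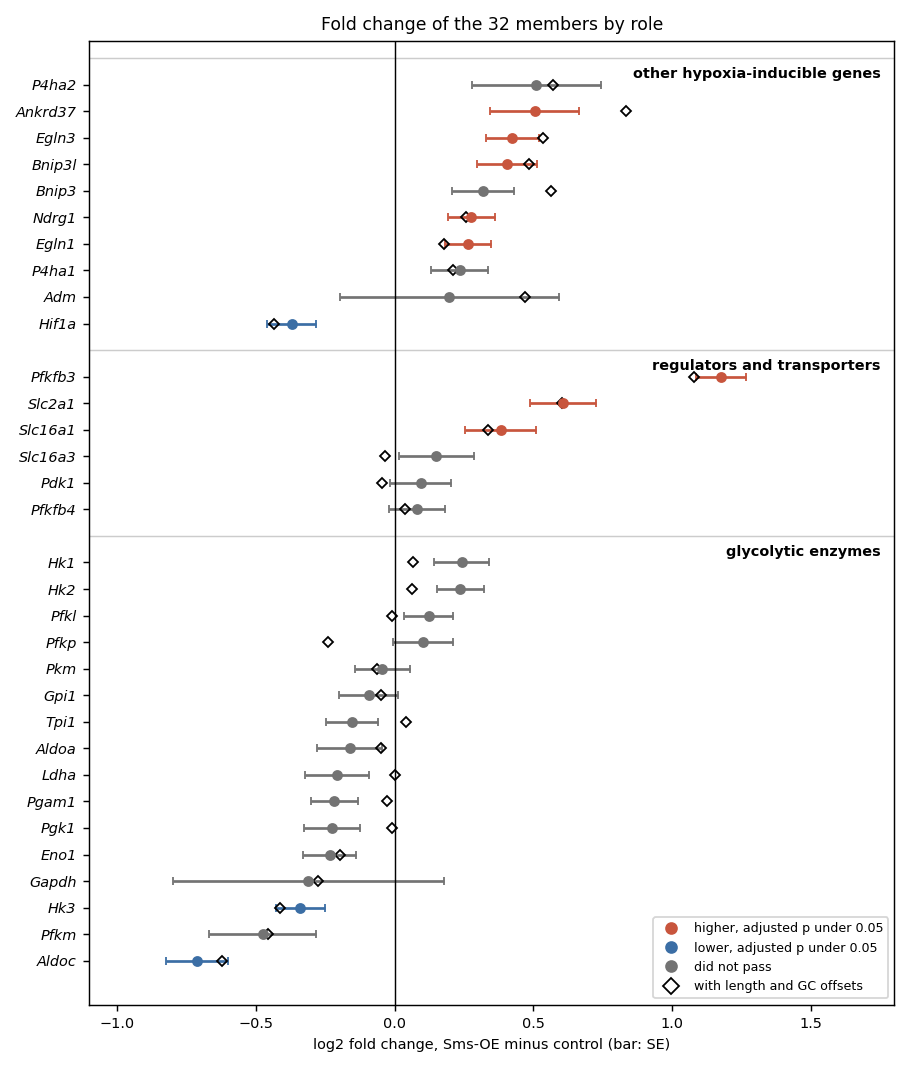
Log2 fold change of each member, Sms-OE minus control, with its standard error (bar), grouped by role; open diamonds give the value with length and GC offsets. Of the 10 other hypoxia-inducible genes 9 lie right of 0, as do all 6 regulators and transporters, while 12 of 16 enzymes lie left of it (Pkm lies right of 0 when scaled by library size only).

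The regulator with the largest rise was Pfkfb3, which makes fructose 2,6-bisphosphate, the activator of phosphofructokinase. It stood at 92.8, 101.6 and 99.7 CPM in the controls and 203.3, 223.1 and 237.3 CPM in Sms-OE. All 3 Sms-OE libraries were high, and the lowest of them lay 102 CPM above the highest control. The gene (ENSMUSG00000026773, chromosome 2, 11471433 to 11554077, minus strand, GRCm38) rose 2.26-fold (log2 1.18 ± 0.091 SE, adjusted p = 0.000118 by edgeR). The rise passed the test whichever single library was left out. Without both haemoglobin-rich libraries it was 1.05 (adjusted p = 0.00365).

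Slc2a1, the glucose transporter GLUT1, was at 328.9, 354.2 and 350.6 CPM in the controls and 431.8, 566.1 and 576.2 CPM in Sms-OE. All Sms-OE libraries were higher, and replicate 1 was the lowest of them. The gene (chromosome 4, 119108711 to 119137983, plus strand) rose 1.52-fold (log2 0.61 ± 0.12 SE, adjusted p = 0.00524 by edgeR). Sms-OE replicates 2 and 3, the highest for Slc2a1, were also the libraries rich in haemoglobin transcripts, at 0.485% and 0.512% of counts against 0.0225% or less elsewhere. With both left out, the log2 fold change was 0.32 (adjusted p = 0.12).

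Slc16a1, the monocarboxylate transporter MCT1, was at 21.6, 20.7 and 18.7 CPM in the controls and 28.3, 22.4 and 28.8 CPM in Sms-OE. Sms-OE replicate 2 lay 0.81 CPM above the highest control, and the groups did not overlap. The gene rose by 0.38 ± 0.13 (SE) on the log2 scale (adjusted p = 0.0491 by edgeR). With 1 library left out the call held only without Sms-OE replicate 2 (adjusted p up to 0.167 otherwise), and it was lost with length and GC offsets (adjusted p = 0.074).

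The other 3 regulators and transporters did not pass. Slc16a3, the lactate exporter MCT4, was the most abundant of the 6 per kilobase (182 ± 20 CPM per kb in the controls, 202 ± 32 in Sms-OE). Its log2 fold change was 0.15 (adjusted p = 0.457 by edgeR). Pfkfb4, a second enzyme of the Pfkfb family, gave 0.08, and Pdk1, a kinase that holds back pyruvate dehydrogenase, gave 0.09; the groups overlapped for each.

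**Figure D2:**
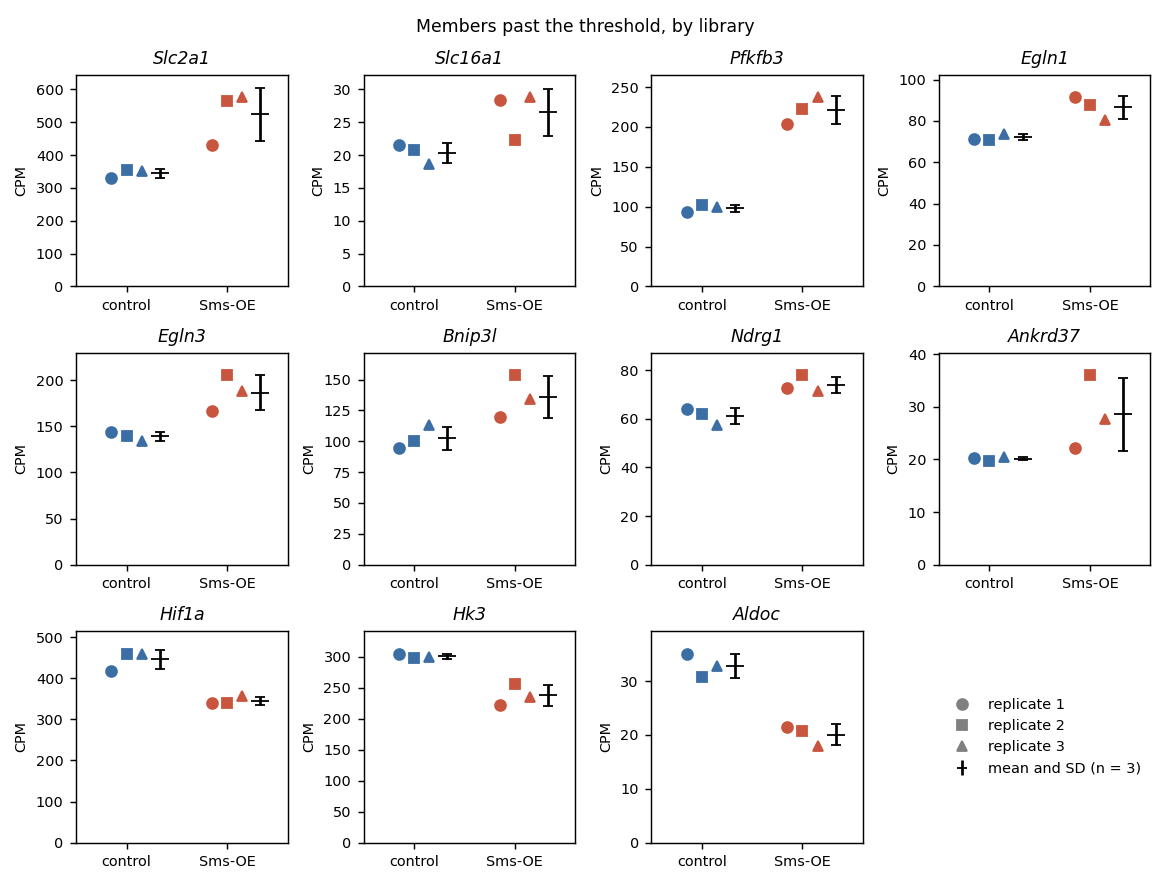
CPM in each library for the 11 members past the threshold, with the group mean and SD (n = 3); each axis starts at 0. For each gene the 3 Sms-OE points lie on 1 side of the 3 control points, and Pfkfb3 shows the widest gap.

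The 5 other hypoxia-inducible genes that rose include both HIF prolyl hydroxylases among the members. Egln3, which encodes PHD3 and is itself a HIF target, was at 144.3, 139.1 and 134.3 CPM in the controls and 166.5, 205.4 and 188.6 CPM in Sms-OE. It rose 1.34-fold (log2 0.42 ± 0.096 SE, adjusted p = 0.00965 by edgeR), a call lost only without control replicate 2 (adjusted p = 0.0529) among the 6 fits that left out a library. Without both haemoglobin-rich libraries it gave 0.25 (adjusted p = 0.186). Egln1, which encodes PHD2, the main oxygen sensor of HIF, stood at 71.5, 70.9 and 73.7 CPM in the controls and 91.4, 87.7 and 80.5 CPM in Sms-OE. Here the lowest Sms-OE library was replicate 3, and the rise was 0.27 ± 0.083 (SE) on the log2 scale (adjusted p = 0.0386 by edgeR). With length and GC offsets the adjusted p was 0.198, and with 1 library left out the call held only without Sms-OE replicate 3 (adjusted p up to 0.146 otherwise).

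Bnip3l and Bnip3 encode related mitophagy receptors. Bnip3l was at 94.8, 99.99 and 112.8 CPM in the controls and 119.5, 153.3 and 134.4 CPM in Sms-OE, and it rose 1.32-fold (log2 0.40 ± 0.11 SE, adjusted p = 0.021 by edgeR). Control replicate 3 and Sms-OE replicate 1 were the closest pair, and the groups did not overlap. A near-identical copy held 9.56% as many counts as the gene, and the sum of both gave 0.38 (adjusted p = 0.0252). With 1 library left out the call held only without control replicate 3 or Sms-OE replicate 1 (adjusted p up to 0.0969 otherwise), and without both haemoglobin-rich libraries the value was 0.21 (adjusted p = 0.339). Bnip3 did not pass in the main fit (log2 0.32 ± 0.11, adjusted p = 0.0607), but passed with length and GC offsets (0.56, adjusted p = 0.00374). Its controls were 95.2, 109.1 and 107.4 CPM and its Sms-OE libraries 119.2, 151.8 and 117.6 CPM.

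Ndrg1, a stress-responsive gene of membrane trafficking, rose 1.21-fold (log2 0.28 ± 0.085 SE, adjusted p = 0.0364 by edgeR). It stood at 64.1, 61.9 and 57.4 CPM in the controls and 72.7, 77.9 and 71.6 CPM in Sms-OE. The groups lay apart by 7.4 CPM, yet the call was lost in each of the 6 fits that left out a library (adjusted p = 0.0613 to 0.133). Ankrd37, an ankyrin repeat gene induced by HIF-1, was at 20.3, 19.8 and 20.4 CPM in the controls and at 22.1, 36.0 and 27.7 CPM in Sms-OE. It rose 1.42-fold (log2 0.50 ± 0.16 SE, adjusted p = 0.0413 by edgeR). Its SD was 0.337 CPM in the controls and 6.98 CPM in Sms-OE, where replicate 2 was the highest. Without both haemoglobin-rich libraries, replicates 2 and 3, it gave 0.13 (adjusted p = 0.635), and with 1 library left out the call held only without Sms-OE replicate 1 (adjusted p up to 0.137 otherwise). Ankrd37 overlaps Ufsp2 on the opposite strand, at 1648 mean counts against 1282 for Ankrd37. The libraries mark the strand, but the sources used here do not say whether counting used it, so reads of the pair cannot be told apart with certainty.

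Hif1a, which encodes HIF-1 alpha, fell 1.29-fold. It stood at 418.0, 459.7 and 458.7 CPM in the controls and 338.7, 338.6 and 356.7 CPM in Sms-OE. Each Sms-OE library lay at least 61.3 CPM below the lowest control (log2 -0.37 ± 0.088 SE, adjusted p = 0.0127 by edgeR). The call was lost only without control replicate 2 among the single-library fits (adjusted p = 0.0639). Without both haemoglobin-rich libraries the value was -0.40 (adjusted p = 0.0842).

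The collagen prolyl hydroxylases P4ha1 and P4ha2, which modify collagen, and Adm, the vasodilator peptide adrenomedullin, did not pass. P4ha1 gave 0.23 (adjusted p = 0.119 by edgeR) with groups that did not overlap, 129.6 to 138.5 CPM against 144.3 to 181.3 CPM. P4ha2 gave 0.51 (adjusted p = 0.133) at 3.76 ± 0.53 CPM and 5.35 ± 1.2 CPM (SD, n = 3). Adm was near 1 CPM in both groups (1.03 ± 0.38 and 1.18 ± 0.26), at 33 to 78 counts per library. Its log2 fold change was 0.20 with a standard error of 0.39.

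**Figure D3:**
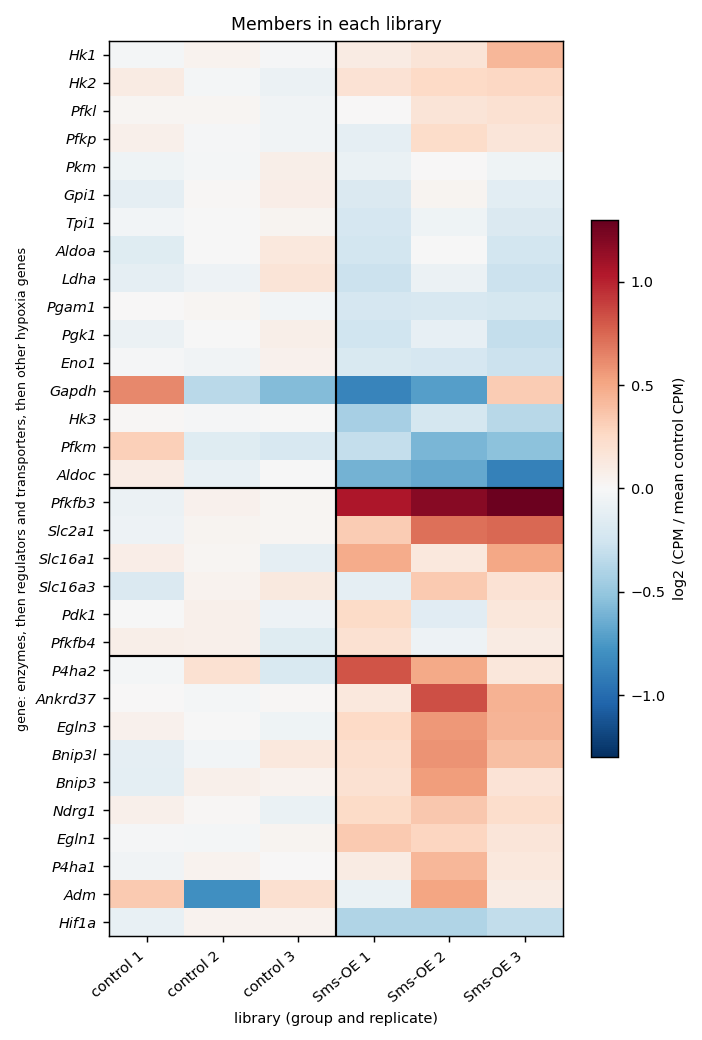
Log2 ratio of each member's CPM to its mean control CPM in each library, genes in rows by role and libraries in columns, with black lines between roles and between groups. Pfkfb3 is the deepest red in all 3 Sms-OE columns, Ankrd37 and Slc2a1 are redder in Sms-OE replicates 2 and 3 than in replicate 1, and most enzyme rows turn pale blue.

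The glycolytic enzymes were among the most abundant members. Gapdh, whose own row could not be read, is left out of the order of levels. Per kilobase of transcript, the other members were led by Aldoa (aldolase A), at 1210 ± 124 CPM per kb in the controls. Pkm (pyruvate kinase, 1048 ± 52), Eno1 (enolase, 859 ± 33) and Ldha (lactate dehydrogenase A, 823 ± 87) followed. Among the enzymes Pfkm, the muscle-type phosphofructokinase, was lowest at 2.91 ± 0.61 CPM per kb (SD, n = 3 each). The levels of Aldoa and Pkm lay within their spread, as did those of Eno1 and Ldha.

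No enzyme rose past the adjusted threshold in the edgeR fit. At an unadjusted p under 0.05 in that fit Hk1 and Hk2, hexokinases that trap glucose in the cell, were higher. At the same level 6 enzymes were lower (Hk3, Aldoc, Pfkm, Pgk1, Pgam1 and Eno1). The share of all genes at that level is not given here. It was at least the 26.9% that passed after adjustment, so these counts are not read as a result about the enzymes. By both the DESeq2 Wald test and limma-voom Hk2 passed as higher and Pgam1 as lower, and by the DESeq2 Wald test Eno1 passed as lower. Hk2 stood at 188.2, 171.7 and 165.7 CPM in the controls and 199.6, 209.0 and 210.8 CPM in Sms-OE (log2 0.24, adjusted p = 0.0665). Hk1 was at 133.3 to 140.7 CPM and 146.5 to 182.9 CPM, and gave 0.24 (adjusted p = 0.0983).

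The third hexokinase of the list fell. Hk3, a form prominent in myeloid cells, was at 305.0, 297.6 and 300.1 CPM in the controls and 222.4, 256.3 and 234.8 CPM in Sms-OE. All Sms-OE values lay at least 41.3 CPM below the controls, and the fall was 1.27-fold (log2 -0.34 ± 0.088 SE, adjusted p = 0.0184 by edgeR). It did not pass on leaving out control replicate 1, control replicate 2 or Sms-OE replicate 3 (adjusted p = 0.0516, 0.0614 and 0.0526), and it passed without both haemoglobin-rich libraries (-0.44, adjusted p = 0.0484).

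Aldoc, aldolase C, was the enzyme with the largest fall. It stood at 35.1, 30.7 and 32.7 CPM in the controls and 21.5, 20.7 and 17.9 CPM in Sms-OE. All Sms-OE libraries lay at least 9.2 CPM below the lowest control, and the gene fell 1.64-fold (log2 -0.71 ± 0.11 SE, adjusted p = 0.00189 by edgeR). It passed whichever single library was left out. Hepatocyte markers, whose summed levels are given above, were lower in the same libraries; their part in this and the other falls was not tested.

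The remaining enzymes of the lower chain did not pass, although several groups did not overlap. Pgk1 (phosphoglycerate kinase), Pgam1 (phosphoglycerate mutase), Eno1 and Tpi1 (triose phosphate isomerase) had every Sms-OE library below every control, with log2 fold changes of -0.22, -0.22, -0.23 and -0.15 (adjusted p = 0.13, 0.0833, 0.0992 and 0.265 by edgeR). Of all genes tested, 23.3% had Sms-OE below control without overlap and 20.8% above. Of the 16 enzymes 7 lay below and 2 above, with Gapdh counted by its own row. Pgam1 was at 476.8, 484.2 and 461.9 CPM in the controls and 408.9, 411.4 and 403.8 CPM in Sms-OE, the tightest of these. For Ldha (1376, 1432 and 1674 CPM against 1233, 1420 and 1228 CPM) and Aldoa (1685, 1870 and 2068 CPM against 1583, 1861 and 1583 CPM) the groups overlapped. Pkm gave -0.04 and Gpi1, the glucose phosphate isomerase, gave -0.09, while the phosphofructokinase subunits Pfkl and Pfkp gave 0.12 and 0.10; none passed. Pfkm gave -0.47 at 7.22 to 10.4 CPM and 5.56 to 6.75 CPM (adjusted p = 0.0964), and it overlaps Senp1, which holds 2094 mean counts against its 387.

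Gapdh could not be read from its own row. The row was at 109.0 to 247.9 CPM in the controls and 88.7 to 202.9 CPM in Sms-OE, but 81 near-identical copies elsewhere in the table together held 2328% as many counts. With the copies added, Gapdh had 3874 ± 304 CPM in controls against 3341 ± 201 CPM in Sms-OE (SD, n = 3 each), a log2 fold change of -0.21 (adjusted p = 0.182 by edgeR). The groups of this sum did not overlap, at 3677 to 4224 CPM in the controls and 3134 to 3536 CPM in Sms-OE. Summing near-identical copies changed no other member's call.

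Fold changes moved with gene length over the whole table. Across all genes tested the median log2 fold change was ordered by transcript length over 4 classes of near-equal size, from -0.14 in the shortest class through -0.11 and -0.0070 to 0.19 in the longest. The enzymes' median transcript of 2832 bases was close to the 2817 of all genes tested, and 7 of the 16 were in the second shortest class. The regulators and transporters had a median of 4380 bases, within the longest class (4314 bases or more). In that class 1198 of 4563 genes rose and 331 fell. With offsets for length and GC the enzymes' median was -0.05, the regulators' 0.19 and that of the other hypoxia-inducible genes 0.48. Under these offsets Ldha, Tpi1, Pfkl, Pfkp, Slc16a3 and Pdk1 changed sign. Of the 11 members past the threshold, 9 still passed, with Slc16a1 and Egln1 the exceptions.

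Among the isozyme families the widest differences in composition were in hexokinase, though no share could pass the test at this number of libraries. Hk3 made up 59.2, 59.1 and 60.3% of the hexokinase signal per kilobase in the controls and 49.5, 51.9 and 47.4% in Sms-OE, so every Sms-OE share lay below every control share. The mean went from 59.5 ± 0.67% to 49.6 ± 2.28%, while Hk1 went from 20.3 to 25.2% and Hk2 from 20.2 to 25.2%. Each exact two-sided permutation test gave p = 0.1, the smallest 3 against 3 libraries allow, and 0.133 after adjustment over 8 shares. Phosphofructokinase stayed mostly Pfkl (55.9 ± 0.90% and 56.8 ± 1.44%) and Pfkp, with Pfkm at 2.34 ± 0.41% and 1.59 ± 0.32%. Aldolase was Aldoa at 99.0 ± 0.15% and 99.3 ± 0.075%, and Aldoc the rest.

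**Figure D4:**
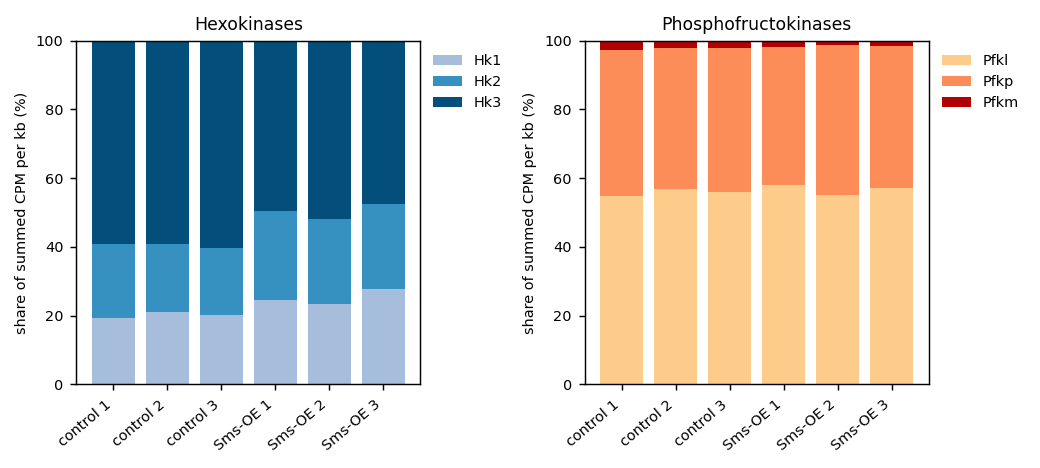
Share of each isozyme in the summed CPM per kilobase of its family, 1 bar per library, for hexokinases (left) and phosphofructokinases (right). The Hk3 segment is shorter in all 3 Sms-OE bars, near 50% against 60%, while Pfkl takes 54.96 to 58.1% of every phosphofructokinase bar.

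Other genes of the same pathways were read from further lists, to be set against the 12.5% of all genes that were higher and the 14.3% that were lower. Of 15 tested genes of oxygen sensing and HIF machinery, 4 rose and 2 fell, the latter near the share over all genes. Crebbp and Ep300, the coactivators that HIF recruits, rose from 57.4 ± 1.02 to 93.0 ± 6.42 CPM and from 122.3 ± 6.8 to 188.2 ± 17.7 CPM (SD, n = 3; log2 0.69 and 0.62, adjusted p = 0.000581 and 0.00166 by edgeR). Their transcripts, of 10820 and 9566 bases, fall in the longest class above, whose median log2 fold change was 0.19. The part of transcript length in the further lists was not tested. Egln2, a further Egln gene, and Cited2 also rose (log2 0.46 and 0.44, adjusted p = 0.00817 and 0.0161 by edgeR). Rbx1, a subunit of the ubiquitin ligase that degrades HIF-1 alpha, fell (log2 -0.54), as did Cul2, its scaffold. Of 38 tested further hypoxia-inducible genes 11 rose and 1, Ak4, fell. Among them Kdm3a, a histone demethylase, rose from 95.4 ± 2.6 to 141.6 ± 17.5 CPM (log2 0.57, adjusted p = 0.00306), and Lox, the collagen cross-linking enzyme, from 0.619 ± 0.21 to 4.24 ± 1.4 CPM (log2 2.76, adjusted p = 0.000797). Stellate cell and fibroblast markers, which include other matrix genes, summed to 64.9 to 82.8 CPM in the controls and 97.7 to 135.2 CPM in Sms-OE, and 2 of 5 tested, Dcn and Col1a2, rose. Their part in the rise of Lox was not tested.

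A second glucose transporter, Slc2a3 (GLUT3), rose from 274.2 ± 16.7 to 525.3 ± 46.8 CPM (log2 0.94 ± 0.10 SE, adjusted p = 0.000342 by edgeR). It was 1 of 4 genes that rose among 19 tested further isozymes of glycolysis and lactate, with 3 that fell. Ldhb, the lactate dehydrogenase subunit that favours pyruvate, fell from 9.40 ± 1.5 to 4.61 ± 0.82 CPM (log2 -1.03, adjusted p = 0.00521). In the list of pyruvate entry to mitochondria, 8 of 13 fell and 5 did not pass. Those that fell included 5 genes of the pyruvate dehydrogenase complex (Pdha1, Pdhb, Dlat, Dld and Pdhx). Mpc1, of the mitochondrial pyruvate carrier, fell too, but Mpc2 of the same carrier did not pass (adjusted p = 0.0838 by edgeR). Pdk3, a kinase of the same family as Pdk1, and Pdp2 also fell (log2 -0.36 and -0.55, adjusted p = 0.023 and 0.0465 by edgeR). Dld fell from 74.4 ± 5.3 to 50.5 ± 5.7 CPM (log2 -0.56, adjusted p = 0.00418) and Pdhx from 11.5 ± 0.39 to 6.15 ± 0.85 CPM (log2 -0.90, adjusted p = 0.00327).

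The pentose phosphate pathway, which branches from glucose 6-phosphate, had 4 of 8 genes lower and 1 higher. Tkt, transketolase, fell from 570.4 ± 13.8 to 360.7 ± 13.3 CPM (log2 -0.66 ± 0.087 SE, adjusted p = 0.000821 by edgeR), and G6pdx, the entry enzyme, from 155.1 ± 2.0 to 122.9 ± 13.6 CPM (log2 -0.34, adjusted p = 0.0261). Of 16 tested genes of gluconeogenesis and glycogen, 2 rose and 3 fell, both near the shares over all genes. Pygm, a glycogen phosphorylase, rose from 5.68 ± 0.21 to 23.8 ± 9.8 CPM (log2 2.07, adjusted p = 0.000773). The median log2 fold changes were 0.24 for oxygen sensing, 0.17 for further hypoxia-inducible genes, 0.015 for further isozymes, -0.38 for pyruvate entry, -0.16 for gluconeogenesis and glycogen and -0.32 for the pentose phosphate pathway, against -0.00060 over all genes.

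Across 20 other settings of the analysis, Pfkfb3 and Aldoc passed in each. Slc2a1 passed in all but the fit without both haemoglobin-rich libraries. Hif1a and Egln3 failed in that fit and without control replicate 2. The plot of calls by setting shows which calls of the other members held.

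**Figure D5:**
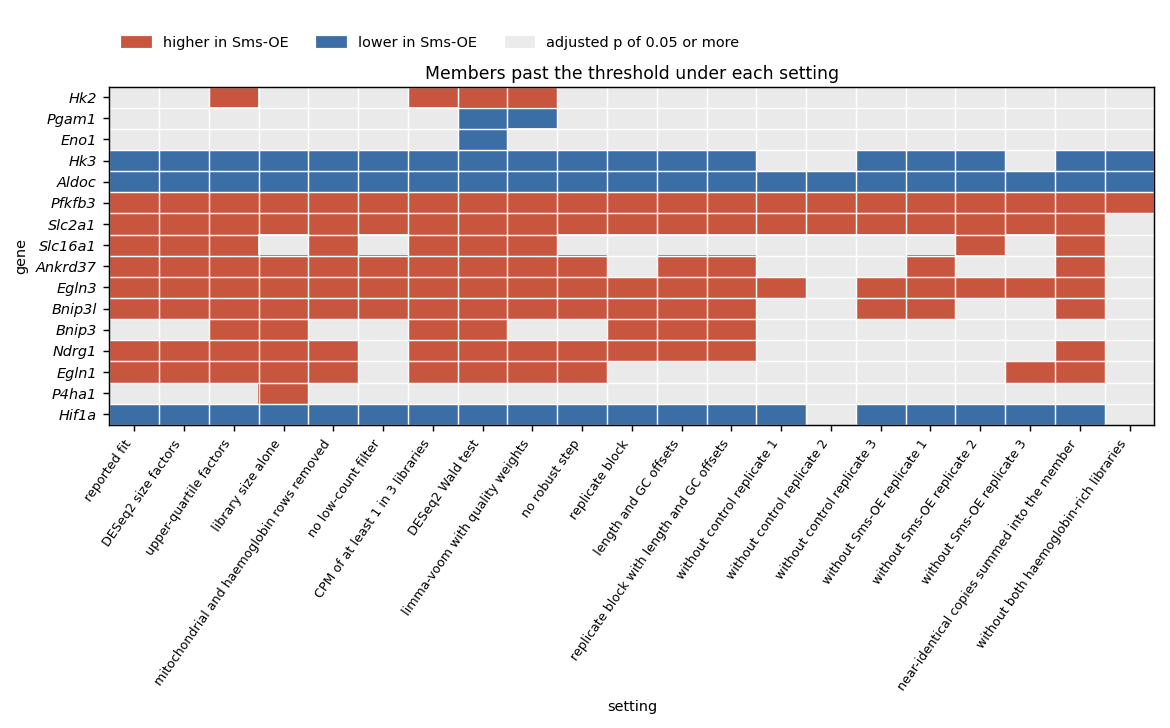
Calls of the 16 members (rows) that passed the threshold in the reported fit or in any of 20 other settings. Columns give the reported fit and these settings, red where higher in Sms-OE and blue where lower. Aldoc and Pfkfb3 are coloured in every column, and Slc2a1 in every column but the last.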

How the data were processed

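Poly(A)-selected RNA was sequenced from 3 control and 3 Sms-OE libraries, made from 2 ug of total RNA each by a dUTP and UDG method that marks the strand, per the labels' protocols. The authors deposited 1 table of estimated counts per gene, whole numbers with no normalization. Tools named in the submitters' processing notes are DESeq2, StringTie 2.1.6, HISAT2 2.2.1, FastQC 0.11.9 and cutadapt 1.9. The sources used here do not give the build, annotation or strand option of the counting. In every library more genes held the value 4 than 3 or 5 (1008 against 580 and 352 in control replicate 1); the source of this excess was not tested, so the counting error of the values is uncertain. Symbols, positions and transcript lengths came from GENCODE M21 (GRCm38) by identifier, for 55141 of 55401 rows; the other 260 rows stayed in the table and held at most 0.0125% of a library. Of 2 rows named Aldoa, the one with more counts was used (563095 against 55).

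From these counts, edgeR 4.0.16 (R 4.3.3) was run with filterByExpr, TMM factors and robust glmQLFit and glmQLFTest, all 6 libraries, group as the only term. P-values were adjusted by Benjamini-Hochberg over 18277 genes with a threshold of 0.05; log2 fold changes are Sms-OE minus control (prior count 0.125), and each standard error was computed from the F statistic. CPM use TMM-scaled library sizes, and CPM per kilobase divide by the longest transcript. Isozyme shares were compared by exact permutation. Copies were found with blastn 2.17.0 (identity of at least 95% over at least 200 bases). Promoter sequences are RefSeq's (GRCm38.p6), matched by symbol for 30 members. The steps were tested on simulated counts. The first criterion of that test, on recovery over all genes, was not met, since low-count genes were missed, and it was then limited to well-expressed genes. Unchanged genes made up a larger share of the calls in that test than the threshold allows, and calls just under it are to be read with caution. The simulation changed far fewer genes than were called in these data, so that share may not carry over.

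The members and lists were chosen with earlier results of these data known. All 32 members are named; of each further list, genes with small p-values were named after their values were seen. Alternatives were other scalings, filters and tests (DESeq2 1.42.0, limma-voom 3.58.1), the replicate number as a block, offsets for length and GC, and each library left out. Summing near-identical copies and leaving out both haemoglobin-rich libraries were added after seeing the data. Some items of the lists are not reported here.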

Additional observations from a re-analysis of the deposited data

How the results depend on the processing

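Over 20 alternatives the 32 members gave 640 values to set beside the reported fit: 555 kept their direction and their side of the threshold, 50 lost a call, 15 gained 1 and 20 changed sign, all 20 short of the threshold. The cause of the changes was not tested, except that leaving out libraries leaves fewer samples.

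When 1 library was left out at a time, 1366 to 2015 genes were higher and 1684 to 2473 lower; the lowest counts came without control replicate 2, and without control replicate 3 1498 were higher. Of the members 2 to 5 were then higher and 1 to 3 lower. Among enzymes 1 to 2 were lower, among regulators and transporters 2 to 3 higher (median log2 0.22 to 0.34), and among other hypoxia-inducible genes 0 to 3 higher and 0 to 1 lower. Without both haemoglobin-rich libraries 690 genes were higher and 694 lower, and of the members 1 higher and 2 lower; that left 1 regulator higher, and 0 of the other hypoxia-inducible genes in either direction. Sms-OE replicate 1 was then alone in its group and was assumed to vary like the controls. With no low-count filter 5 members were higher, 3 of them other hypoxia-inducible genes. The DESeq2 Wald test gave 5 members lower, 4 of them enzymes, and it, limma-voom, upper-quartile factors and the stricter filter each gave 1 enzyme higher.

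With length and GC offsets the role medians were -0.049, 0.19 and 0.48 for enzymes, regulators and other hypoxia-inducible genes, and with the replicate block added -0.049, 0.18 and 0.50. Sign changes with the offsets, and with the offsets and the block, were Pfkl (-0.0085 and -0.010), Pfkp (-0.24 and -0.25), Tpi1 (0.042 and 0.042), Ldha (0.0013 and 0.0027), Slc16a3 (-0.035 and -0.039) and Pdk1 (-0.047 and -0.053). Without both haemoglobin-rich libraries Pfkl gave -0.0056, Pfkp -0.12, Slc16a3 -0.12 and Adm -0.092. With 1 library left out, Gapdh ranged from -0.79 to 0.14 (without control replicate 1) and Adm from -0.092 (without control replicate 2) to 0.40; Pfkfb4 ranged from -0.0029 (without control replicate 3) to 0.14. Pkm gave 0.020 when scaled by library size only. The Pfkp share changed sign per kilobase of all exons (0.059 percentage points) and ranged from -1.005 to 0.71 with 1 library left out.

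The deviations of same-numbered libraries from their group means correlated at 0.065, 0.020 and -0.0075. Libraries of different number gave -0.066 to 0.044. With 3 libraries per group these values cannot settle whether a number marks a shared animal or batch. With the replicate block 2117 genes were higher and 2415 lower, and 6 members were higher and 3 lower; Slc16a1 (adjusted p = 0.0706), Egln1 (0.0619) and Ankrd37 (0.0573) no longer passed and Bnip3 (0.0445) did. Adm held few counts, 33 to 78 per library, and the part of depth in its spread was not tested.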
